A study of Homo sapiens with 6 samples.

Results

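The genes described here are 40 that encode integrin chains other than the collagen-binding ones and the cytoplasmic proteins that gather at integrins in focal adhesions. They were taken by gene symbol from a list of such chains and adaptors, and all 40 were found among the 23754 features of the count table. Integrins are pairs of an alpha and a beta chain that span the cell membrane, grip matrix proteins such as fibronectin, vitronectin or laminin outside the cell, and hold the actin cytoskeleton inside it through a plaque of adaptor proteins called the focal adhesion. Talin and kindlin bind the tail of the beta chain and switch the integrin to its gripping state, vinculin and alpha-actinin pass the pull to actin, and the kinases FAK and SRC read out the load. In lung fibroblasts these sites carry the traction of the cell on its matrix, and integrins with the alpha V chain can free latent TGF-β, the main fibrogenic signal of the tissue.

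The cells were IMR-90, an established line of human fetal lung fibroblasts, transduced with the doxycycline-inducible Tet-pLKO-puro vector that carries the sh-2 hairpin against ZNF469 and kept under puromycin. ZNF469 is a large zinc finger protein whose loss causes brittle cornea syndrome, a connective tissue disorder. The knockdown group (Sh-ZNF469, 3 libraries) was induced with 2 µg/mL doxycycline for 4 days. For the control group (Control, 3 libraries) the sample labels give the genotype as wild-type, while the extraction notes and the study's methods describe the hairpin line left without doxycycline. No library holds doxycycline without the hairpin, so in these data the effects of the drug and of the knockdown cannot be told apart. The study states that in its control experiments neither doxycycline nor transduction by itself changed collagen production. Those controls are described for collagen alone. A line carrying 1 hairpin sequence stands for the knockdown. The submitted design text calls the libraries technical replicates, so every p-value below measures the spread between these libraries, which may leave out variation between independent cultures.

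Each library held 34057675 to 36120260 counts. Levels are given as CPM, counts divided by the TMM-normalised library size, which follow 1 gene across libraries, and as the deposited FPKM values, which are per length and are used to set 1 gene against another. ZNF469 measured 117.5, 112.0 and 126.4 CPM in the control libraries and 80.4, 80.4 and 79.6 CPM in the knockdown libraries (log2 fold change −0.57, standard error 0.0477, adjusted p = 3.31e-05). Of the 13991 features with enough counts to test, 56 were called higher and 100 lower at an adjusted p under 0.05 by edgeR's quasi-likelihood test, which is 1.12% of them. Sh-ZNF469 replicate 2 stood apart on the principal component that held 23.9% of the variance, with a score of 32.75 against −12.63 to 0.524 in the other libraries, so values without it are given beside many of the genes below. The 9 fibroblast markers summed to 36750 to 37880 CPM in the control and 27380 to 28280 CPM in the knockdown libraries. Of these, 5 were called lower, COL1A1, COL1A2, COL3A1, DCN and LUM. COL1A1 averaged 15509 CPM in control and 9610 CPM in knockdown cells, and COL1A2 10083 and 7107 CPM. PDGFRA, PDGFRB, THY1 and VIM were not called, with log2 fold changes of −0.0030, −0.016, 0.037 and −0.020. Epithelial, endothelial and leukocyte markers summed to less than 1 CPM in every library, with SFTPB, SFTPC, NKX2-1, KRT5, PECAM1, CDH5 and CD3E at 0. The smooth muscle markers MYH11, DES and RGS5 summed to 18.14 to 18.37 CPM in the control and 19.44 to 23.46 CPM in the knockdown libraries, with 0 of them called, and their part in the results below was not tested. In bulk RNA, fewer cells of a type and less RNA per cell cannot be told apart.

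The integrin and focal adhesion genes differed little between the groups. Of the 40 genes, 38 had enough counts to test and 0 were called in either direction, against 0.4% of all features called higher and 0.715% called lower. Their log2 fold changes ran from −0.12 for LIMS2 to 0.22 for ITGAV, with 14 above 0, 24 below 0 and a median of −0.033, beside −0.0019 over all features. The lowest adjusted p was 0.0587, for the alpha V chain ITGAV, followed by 0.0774 for the actin-binding adaptor TNS1. At an unadjusted p under 0.05, 9 of the 38 (23.7%) passed, 4 higher and 5 lower, while 15.0% of all features did so, 7.31% higher and 7.69% lower. Control and knockdown values did not overlap for 11 of the 38 (28.9%), against 20.3% of all features. With another test the count differed: DESeq2 called ITGAV and TNS1 higher and ACTN4 lower, and limma-voom called 0. DESeq2 called 5.62% of the 9379 features to which it gave an adjusted p, and limma-voom 1.1% of 13991 features. ITGAV and TNS1 were both called without a filter on low counts (1.55% of features called) and with library size scaling (1.18%), and ITGAV alone without Sh-ZNF469 replicate 3 (1.13%).

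Within these libraries and under the main test, confidence intervals bounded the size of a difference. They may leave out variation between independent cultures. They also hold for the main test alone: with a trend on transcript GC content removed, FLNA was 0.0232, above its upper limit of 0.018. The 95% confidence interval of the log2 fold change lay within ±0.25, which is 18.9% higher to 15.9% lower, for 32 of the 38 genes. It lay within ±0.5 for 36 and within ±1 for all 38. The 3 genes whose interval reached beyond ±0.3 were ITGAV and the sparsely counted chains ITGA8 and ITGB8.

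**Figure D1:**
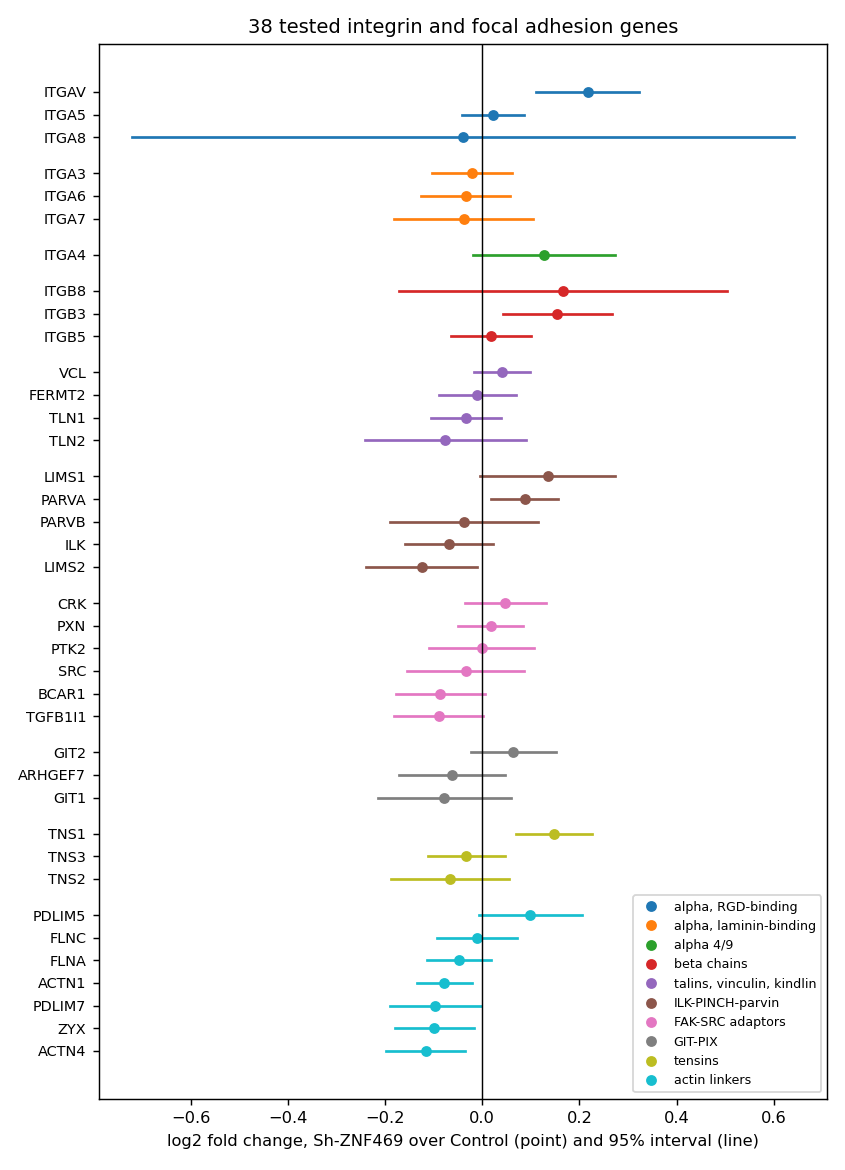
Points give the log2 fold change (Sh-ZNF469 over Control, horizontal axis) of the 38 tested genes and lines its 95% confidence interval, with genes grouped and coloured by role. Most intervals cross 0 and 32 lie within ±0.25. ITGAV has the largest estimate, at 0.22.

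The RNA levels of the alpha and beta chains listed here were compared with each other by FPKM. Other chains were left out of this order, and protein and the pairing of chains were not measured. Among the alpha chains of control cells, ITGA5, the fibronectin receptor chain, was the most abundant at 137.8 ± 2.11 FPKM (SD, n = 3), followed by the laminin receptor chain ITGA3 at 115.2 ± 4.10 FPKM and ITGAV at 31.1 ± 1.55 FPKM. ITGA6, another laminin receptor chain, measured 23.1 ± 0.437 FPKM and overlapped the collagen-binding chain ITGA1, which is not among the 40 genes. ITGA7, the laminin chain known from muscle, measured 5.15 ± 0.211 FPKM and overlapped ITGA4, whose product binds VCAM1 and fibronectin, at 4.92 ± 0.352 FPKM. ITGA8 and ITGA9 were at the bottom, at 0.174 ± 0.0710 and 0.0257 ± 0.00832 FPKM. Every other step down this order separated the 3 control libraries of a chain from those of the next.

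Among the beta chains, ITGB5, a partner of alpha V, measured 54.0 ± 1.69 FPKM and ITGB3, another vitronectin-binding partner, 9.63 ± 0.258 FPKM. ITGB8, which with alpha V activates latent TGF-β, measured 0.385 ± 0.0431 FPKM. ITGB4, the hemidesmosome chain of epithelia, had 2 to 36 counts per library and ITGA9 had 6 to 13, so neither could be tested. All of these lay far below ITGB1, the shared partner of most alpha chains and not among the 40 genes, at 1158.5 ± 54.1 FPKM. The order of the alpha and of the beta chains by mean FPKM was the same in knockdown cells except that ITGA1, at 24.5 FPKM, lay above ITGA6, at 23.1 FPKM, and that ITGA4, at 5.57 FPKM, lay above ITGA7, at 5.10 FPKM. Neither exchange was tested.

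**Figure D2:**
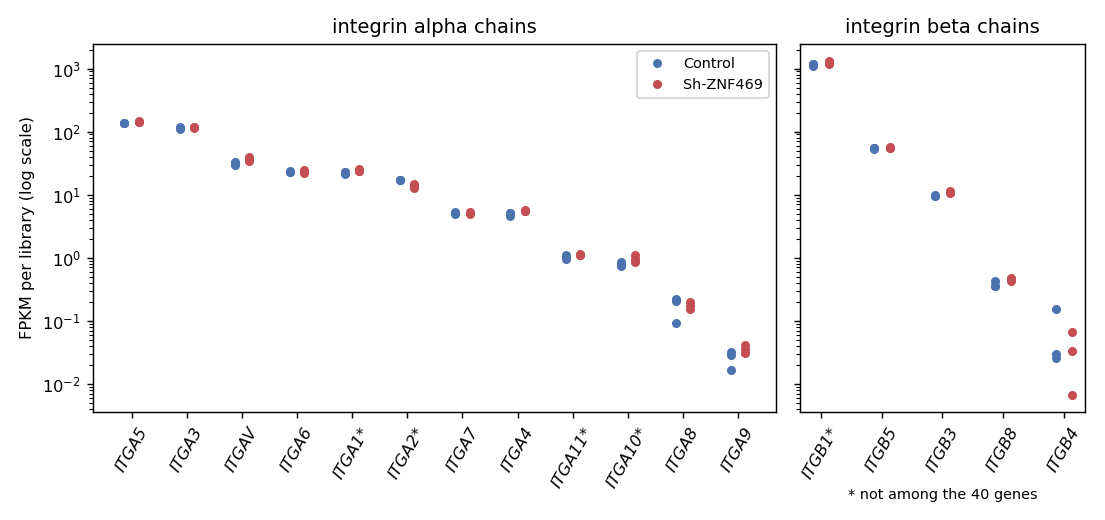
Each point is the FPKM value of an integrin chain in a library (vertical log axis), with 3 Control and 3 Sh-ZNF469 libraries per chain, ordered by the control mean; asterisks mark collagen-binding chains and ITGB1, which are not among the 40 genes, and ITGB6, listed at 0, is not drawn. ITGA5 and ITGA3 lead the alpha chains above 100 FPKM, and ITGA8, ITGA9, ITGB8 and ITGB4 lie below 1 FPKM.

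The alpha V chain and its beta 3 partner held the largest estimates above 0 among the well-counted chains. ITGAV (ENSG00000138448, GRCh38 chr2:186590010-186680901, plus strand) measured 240.2, 254.6 and 234.6 CPM in control libraries and 282.9, 301.8 and 262.9 CPM in knockdown libraries. The lowest knockdown library lay above the highest control library, by a small margin for Sh-ZNF469 replicate 3. The log2 fold change was 0.22 (standard error 0.0494, unadjusted p = 0.000743), or 116.2% of control, and the adjusted p of 0.0587 missed the threshold. Over 18 alternative settings the estimate stayed between 0.15 and 0.27 and 8 settings called it, with adjusted p from 0.000324 to 0.226. Those 8 include the settings that removed a trend on transcript GC content, described below, which were chosen after seeing the data. Without Sh-ZNF469 replicate 2, the highest library for this gene, the estimate was 0.17 (adjusted p = 0.148).

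ITGB3 measured 41.9, 40.9 and 43.8 CPM in control libraries and 47.8, 44.7 and 48.6 CPM in knockdown libraries, which did not overlap (log2 fold change 0.15, adjusted p = 0.184). An unnamed Ensembl gene on the same strand, AC068234.1, shares exons with ITGB3 and held 0 counts. ITGB5 showed no such separation, with 263.9, 248.8 and 263.3 CPM against 260.2, 255.7 and 270.0 CPM (log2 fold change 0.018, 95% interval −0.064 to 0.10). The third tested beta chain, ITGB8, had a wide interval from −0.17 to 0.50.

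The fibronectin receptor chain ITGA5 was close to even between the groups. It measured 681.3, 665.5 and 696.1 CPM in control and 691.2, 677.5 and 706.3 CPM in knockdown libraries (log2 fold change 0.022, 95% interval −0.042 to 0.087, adjusted p = 0.774). ITGA8, the remaining chain of the group that recognises the RGD tripeptide, had 25 to 56 counts per library and an interval from −0.72 to 0.64, too wide to read.

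The 3 laminin-binding chains all had estimates slightly below 0, from −0.038 to −0.021, and 0 passed an unadjusted p under 0.05. ITGA3 measured 612.8, 591.5 and 649.4 CPM in control and 621.5, 585.8 and 619.0 CPM in knockdown libraries, with overlapping groups (log2 fold change −0.021, adjusted p = 0.84). ITGA6 measured 144.3, 138.9 and 143.1 CPM against 138.8, 144.8 and 132.6 CPM, also overlapping (log2 fold change −0.034, adjusted p = 0.757). ITGA4 measured 23.4, 22.5 and 20.5 CPM in control and 24.7, 24.1 and 23.6 CPM in knockdown libraries. Its groups were separated by a narrow gap (log2 fold change 0.13, adjusted p = 0.407), and the gene overlaps CERKL on the other strand. Whether the counting used strand is not given in the sources used here, so reads of such overlapping pairs may be shared. Exons of VCL, ILK, ITGA7, TNS2, LIMS2, ACTN4 and ZYX also overlap those of genes on the other strand, AP3M1, TAF10, BLOC1S1, SPRYD3, GPR17, CAPN12 and EPHA1 among them.

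The proteins that switch integrins on had estimates close to 0. TLN1, the talin of non-muscle cells, measured 871.2, 851.3 and 923.3 CPM in control and 867.3, 839.0 and 878.5 CPM in knockdown libraries (log2 fold change −0.034, 95% interval −0.11 to 0.038, adjusted p = 0.683). VCL, vinculin, which reinforces the link from talin to actin, measured 881.0, 843.4 and 866.0 CPM against 880.7, 887.1 and 896.3 CPM (log2 fold change 0.041, 95% interval −0.018 to 0.099, adjusted p = 0.514). Both pairs of groups overlapped, for VCL through Control replicate 1 alone. The kindlin FERMT2 and the second talin gene TLN2 had estimates between −0.076 and −0.010, and of these 4 genes 0 passed an unadjusted p under 0.05. TLN1 made up 98.15% of the summed FPKM of the talin genes in control and 98.21% in knockdown cells.

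The complex of ILK, PINCH and parvin couples beta tails to actin. Its 5 genes split, with 2 estimates above 0 and 3 below, and 0 were called. ILK, the pseudokinase at its core, measured 315.9, 321.0 and 334.9 CPM in control and 316.0, 290.6 and 320.5 CPM in knockdown libraries, overlapping (log2 fold change −0.068, adjusted p = 0.479). PARVA, alpha-parvin, which binds actin, measured 338.1, 328.5 and 336.4 CPM against 354.3, 359.1 and 352.1 CPM. All 3 knockdown libraries lay above all 3 control libraries, at 106.2% of control (log2 fold change 0.087, standard error 0.0315, unadjusted p = 0.0161, adjusted p = 0.215).

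LIMS2, the second PINCH gene, had the lowest estimate of all 38. It measured 54.6, 54.4 and 59.0 CPM in control and 50.2, 49.5 and 54.4 CPM in knockdown libraries, where the highest knockdown library reached the lowest control library (log2 fold change −0.12, standard error 0.0527, unadjusted p = 0.0346, adjusted p = 0.290). LIMS1, the other PINCH gene, had an estimate of 0.13 with an interval from −0.0050 to 0.27. Near-identical copies of LIMS1 were counted separately, LIMS3 with 143 to 218 counts and LIMS4 with 61 to 120, so the value of LIMS1 is uncertain by reads that may be split among them. PARVB, beta-parvin, overlapped between the groups.

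Among the kinases and scaffolds that carry the integrin signal, 0 of 6 genes passed an unadjusted p under 0.05. PXN, paxillin, the docking scaffold of the focal adhesion, measured 335.3, 334.8 and 330.3 CPM in control and 340.0, 333.6 and 338.9 CPM in knockdown libraries (log2 fold change 0.017, adjusted p = 0.843). TGFB1I1, the paxillin relative also called Hic-5, measured 163.1, 158.8 and 157.9 CPM against 154.0, 142.2 and 154.8 CPM. Its knockdown libraries all lay below its control libraries, lowest in Sh-ZNF469 replicate 2 (log2 fold change −0.089, adjusted p = 0.346), and the estimate was −0.050 without that library. BCAR1, the p130Cas scaffold, also did not overlap, at 218.0 to 237.7 CPM in control and 205.2 to 217.0 CPM in knockdown libraries. PTK2, which encodes FAK, averaged 101.9 ± 6.37 CPM in control and 101.8 ± 3.41 CPM in knockdown cells, and SRC and the adaptor CRK also overlapped between the groups.

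GIT proteins and their partner PIX, encoded by ARHGEF7, bring RAC and CDC42 activators to paxillin. GIT1 measured 52.1, 45.0 and 52.2 CPM in control and 48.0, 44.4 and 49.1 CPM in knockdown libraries (log2 fold change −0.078, adjusted p = 0.605, and −0.035 without Sh-ZNF469 replicate 2). GIT2 measured 92.8, 90.9 and 90.4 CPM against 95.4, 92.9 and 98.2 CPM (log2 fold change 0.064, adjusted p = 0.492). The GIT2 groups were just separated and the GIT1 groups overlapped, and GIT2 overlaps TCHP on the other strand. ARHGEF7 had an estimate of −0.062 with an interval from −0.17 to 0.046, and its groups also overlapped.

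Tensins tether integrin tails to actin in the elongated fibrillar adhesions of fibroblasts, where fibronectin is drawn into fibres. TNS1 (ENSG00000079308, GRCh38 chr2:217799588-218033982, minus strand) measured 261.5, 248.1 and 262.3 CPM in control and 279.9, 283.3 and 291.6 CPM in knockdown libraries. All knockdown libraries lay above all control libraries, at 110.7% of control (log2 fold change 0.15, standard error 0.0363, unadjusted p = 0.00139, adjusted p = 0.0774). Over 18 alternative settings the estimate ran from 0.10 to 0.19 and 6 settings called it, with adjusted p from 0.0018 to 0.232. Those 6 also include the settings with the GC trend removed, which were chosen after seeing the data. Without Sh-ZNF469 replicate 2 it was 0.15 (adjusted p = 0.124). TNS3 did not share this pattern, with 159.4, 162.0 and 165.3 CPM against 157.8, 157.5 and 160.6 CPM (log2 fold change −0.032, adjusted p = 0.728), and TNS2 overlapped between the groups.

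**Figure D3:**
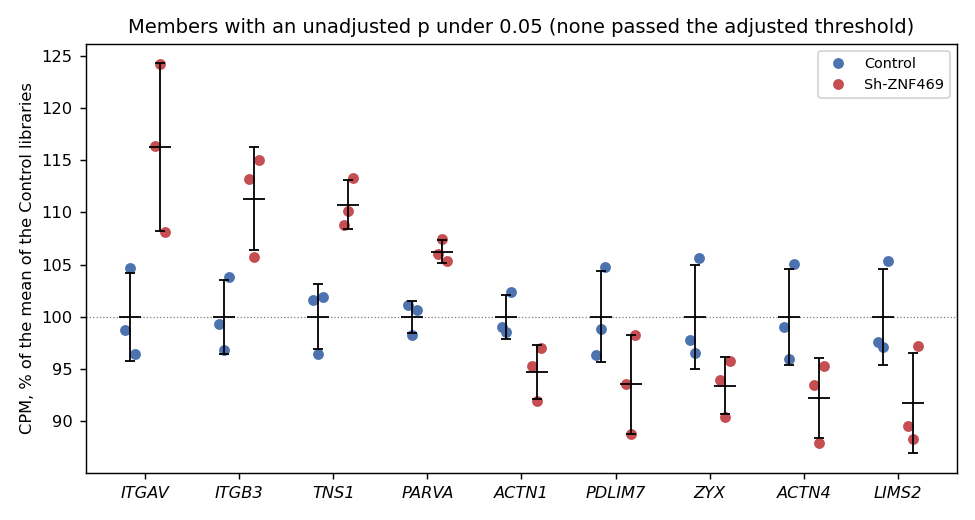
Each point is a library, plotted as CPM in percent of the mean of the 3 Control libraries of that gene (vertical axis, not starting at 0), with the mean and SD of each group, for the 9 genes at an unadjusted p under 0.05. ITGAV, ITGB3, TNS1 and PARVA lie above their controls, ACTN1, ZYX and ACTN4 lie below without overlap, and PDLIM7 and LIMS2 overlap.

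The actin linkers FLNA, ACTN1, ZYX and PDLIM7 were the most abundant of the 40 genes by FPKM, at 444.6, 451.4, 254.2 and 185.3 FPKM in control cells. Of 7 linkers, 6 had estimates below 0 and 4 of them an unadjusted p under 0.05, with a median log2 fold change of −0.078, and 0 were called. Over all features, 7.69% were lower at an unadjusted p under 0.05. The median GC content of the linker transcripts was 62.26%, and 68.4% of all features at or above 50% GC had estimates below 0. ACTN4, an alpha-actinin that crosslinks actin, measured 906.2, 878.3 and 961.4 CPM in control and 855.4, 805.1 and 872.1 CPM in knockdown libraries. The knockdown libraries lay below the control libraries, at 92.2% of control (log2 fold change −0.12, standard error 0.0379, unadjusted p = 0.00881, adjusted p = 0.170), with a small gap between Sh-ZNF469 replicate 3 and Control replicate 2. Without Sh-ZNF469 replicate 2 the estimate was −0.083 (adjusted p = 0.409), and without Control replicate 3 it was −0.080 (adjusted p = 0.485).

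ACTN1, the other non-muscle alpha-actinin, measured 1721, 1712 and 1779 CPM in control and 1656, 1597 and 1686 CPM in knockdown libraries, again without overlap (log2 fold change −0.078, unadjusted p = 0.0112, adjusted p = 0.188). ZYX, zyxin, which repairs strained stress fibres, measured 659.3, 650.7 and 712.2 CPM against 633.6, 609.8 and 645.7 CPM (log2 fold change −0.098, unadjusted p = 0.0210, adjusted p = 0.236). PDLIM7, a PDZ and LIM domain protein of stress fibres, measured 321.3, 329.7 and 349.6 CPM against 312.0, 296.2 and 327.7 CPM (log2 fold change −0.096, unadjusted p = 0.0454, adjusted p = 0.320). The ZYX groups were separated and the PDLIM7 groups overlapped. Without Sh-ZNF469 replicate 2 the estimates were −0.055 for ACTN1, −0.075 for ZYX and −0.059 for PDLIM7.

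FLNA, filamin A, which binds both integrin tails and actin, was the most counted of the 40 genes. It measured 4091, 3992 and 4351 CPM in control and 4040, 3862 and 4124 CPM in knockdown libraries, which overlapped (log2 fold change −0.048, 95% interval −0.11 to 0.018, adjusted p = 0.492). FLNC, the filamin best known from muscle, had an estimate of −0.011, and PDLIM5 was the linker with an estimate above 0, at 0.099 with an interval from −0.0065 to 0.21. Sh-ZNF469 replicate 2, the library that stood apart, was the lowest knockdown library for ACTN1, ACTN4, ZYX, PDLIM7, FLNA, FLNC, ILK and TGFB1I1 and the highest for ITGAV, LIMS1 and PDLIM5. Without it the estimates were −0.021 for FLNA, 0.018 for FLNC, −0.024 for ILK, 0.051 for LIMS1 and 0.043 for PDLIM5. Control replicate 3 was the highest control library for the same genes of the former set except TGFB1I1, and the lowest control library for ITGAV, LIMS1 and PDLIM5.

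Promoters of the actin-linked members were read because many actin cytoskeleton genes carry a CArG box, the site recognised by serum response factor. The box is a pair of Cs, a run of 6 bases that are each A or T, and a pair of Gs, and was searched on both strands in windows from 250 bases before to 50 after each start site (RefSeq, GRCh38.p14), which were given for 32 of the 40 genes. It occurred in 3 of 67 member windows (4.48%) and in 1.29% of all 35116 windows. These 3 are shown with the box in capitals and 25 bases on either side, 5′ to 3′ on the strand of the gene.
ACTN1, chr14:68977703-68977762, minus strand: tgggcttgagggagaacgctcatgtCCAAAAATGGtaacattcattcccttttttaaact
TGFB1I1, chr16:31473129-31473188, plus strand: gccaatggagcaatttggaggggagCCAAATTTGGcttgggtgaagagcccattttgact
FLNA, chrX:154374694-154374753, minus strand: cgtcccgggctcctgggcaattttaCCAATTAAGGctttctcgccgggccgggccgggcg

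The boxes of ACTN1, TGFB1I1 and FLNA began 171, 51 and 94 bases before the start site of their windows. For FLNA this is the 5′ end of the gene in GENCODE 44, whereas for ACTN1 and TGFB1I1 it is an alternative start 1874 and 1620 bases inside the gene. Their log2 fold changes were −0.078, −0.089 and −0.048, and 0 of these genes was called. GGAATG, the core letters bound by TEAD factors, was also searched on both strands and occurred in 7 member windows of 6 genes (10.4%), which were ACTN1, FLNC, ITGA5, PXN, TNS1 and VCL, and in 14.0% of all windows. In the ACTN1 window it lay closer to the start site than the CArG box and did not overlap it. The matches of TNS1, which had the second lowest adjusted p, lay in windows of different start sites, 89912 and 113746 bases inside the gene, once in the reverse orientation, and are shown with the motif in capitals.
TNS1, chr2:217944257-217944312, minus strand: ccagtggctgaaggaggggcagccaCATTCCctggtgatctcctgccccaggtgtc
TNS1, chr2:217920304-217920359, minus strand: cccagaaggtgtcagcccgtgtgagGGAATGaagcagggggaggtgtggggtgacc

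The genes that matched GGAATG had log2 fold changes on both sides of 0, from −0.078 for ACTN1 to 0.15 for TNS1. A match describes the letters of the window and is not evidence of binding.

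Pairs of related genes were compared by share, as the FPKM of a gene in percent of the sum of both. Of 9 such pairs, 3 did not overlap between the groups. For each the two-sided exact permutation p was 0.1, the smallest that 3 libraries against 3 allow (adjusted over the 9 pairs, 0.3). Pairs of other genes were not compared, and 20.3% of all single features did not overlap by CPM. ITGB5 made up 85.24%, 84.73% and 84.63% of ITGB5 and ITGB3 together in control libraries and 83.27%, 84.11% and 83.59% in knockdown libraries, a difference of −1.21 percentage points. PXN made up 51.16%, 51.42% and 50.59% of PXN and TGFB1I1 against 51.82%, 52.97% and 51.78%, a difference of 1.13 percentage points. FLNA made up 74.44%, 74.80% and 74.48% of FLNA and FLNC against 73.96%, 74.00% and 73.94%, a difference of −0.606 percentage points.

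The remaining shares overlapped between the groups. LIMS1 was 42.18 ± 1.93% of LIMS1 and LIMS2 in control and 45.58 ± 3.95% in knockdown cells (SD, n = 3), a difference of 3.4 percentage points that came to 1.23 without Sh-ZNF469 replicate 2. GIT1 was 43.15 ± 2.11% of GIT1 and GIT2 against 40.92 ± 0.645%. PARVA was 84.24 ± 0.728% of the parvin genes against 85.47 ± 1.23%, and PDLIM5 was 12.99 ± 0.691% of PDLIM5 and PDLIM7 against 14.45 ± 1.32%, a difference of 1.46 percentage points that came to 0.778 without the same library. ACTN1 made up 73.10 ± 0.449% of the alpha-actinin genes in control and 73.09 ± 0.393% in knockdown cells. With FPKM replaced by CPM per transcript length, the ACTN1 difference was 0.526 and the PXN difference 1.86 percentage points.

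**Figure D4:**
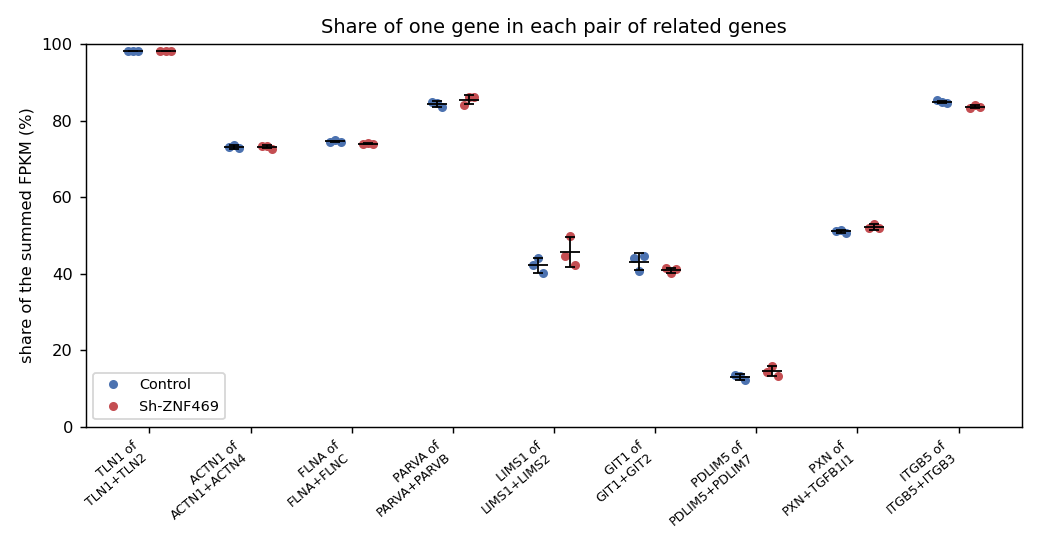
Points give the share of the gene named at the top of each label in the summed FPKM of the pair, in percent, for 3 Control and 3 Sh-ZNF469 libraries, with the mean and SD. All shifts of the mean are at most 3.4 percentage points. The groups are separated for the pairs of FLNA, PXN and ITGB5 (exact permutation test, adjusted p = 0.3 for each).

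The estimates of these genes varied with the base composition of their transcripts. Over the 38 genes, Spearman's rho between log2 fold change and the GC content of the canonical transcript was −0.716, and over the 12771 tested features with a known transcript it was −0.381. These are descriptions across genes measured in the same 6 libraries, and genes are not independent replicates. Of 14 genes under 50% GC, 10 (71.4%) had estimates above 0, as did 64.5% of all features under 50%. Of 24 genes at or above 50% GC, 20 (83.3%) had estimates below 0, as did 68.4% of all such features. The median GC content was 55.01% for the 38 genes and 48.35% for all features tested, and ITGAV (38.3%) and LIMS2 (64.4%) lay near opposite ends.

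TNS1 (56.9% GC) and ITGB3 (49.7%) lay above the run of the other genes at their GC content. The trend of each library on GC content was also removed, a step chosen after seeing the data. The median of the 38 genes was then 0.019 in place of −0.033. ITGAV was 0.15 (adjusted p = 0.0244) and TNS1 was 0.19 (adjusted p = 0.00256), and both were called, with 2.07% of all features called. ITGA5 was 0.0745 (adjusted p = 0.0629) and was not called. ITGA3, ITGA7, TLN1, SRC, TNS2, TNS3, FLNA and FLNC changed sign. Among the actin linkers ACTN4 was −0.062 (adjusted p = 0.170), ACTN1 −0.040, ZYX −0.020 and PDLIM7 −0.016, and LIMS2 was −0.044, all nearer to 0 than without this step.

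**Figure D5:**
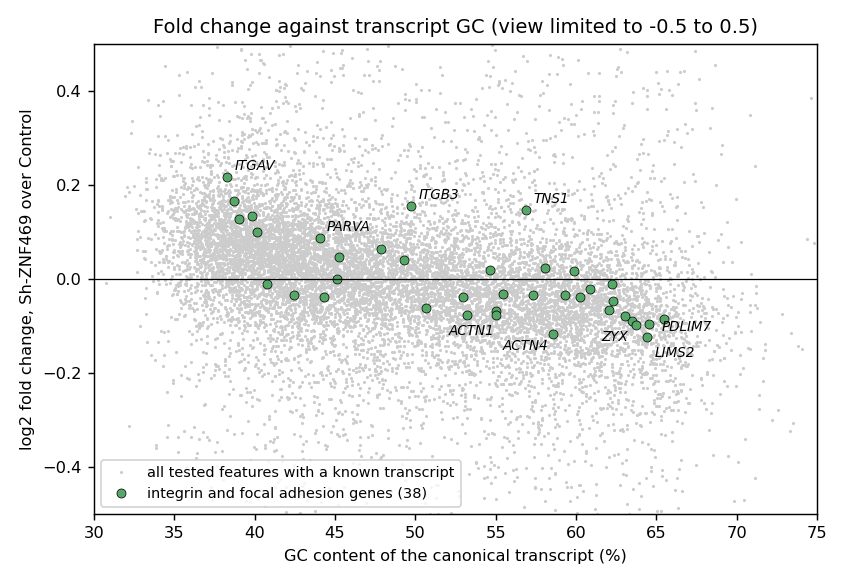
Log2 fold change (vertical axis) is plotted against the GC content of the canonical transcript (horizontal axis, percent) for 38 integrin and focal adhesion genes (green) and all 12771 tested features with a known transcript (grey), of which 461 lie outside the view. Genes at low GC content, led by ITGAV, lie mostly above 0 and those at high GC content, such as LIMS2, PDLIM7 and ZYX, mostly below.

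Of 72 other genes of the adhesion machinery, 65 could be tested, with 43 estimates above 0, 22 below and a median of 0.016. Their median GC content was 46.98%. Under 50% GC, 34 of 41 (82.9%) had estimates above 0, beside 64.5% of all such features. At or above 50% GC, 15 of 24 (62.5%) had estimates below 0, beside 68.4% of all such features. Of the 65, 2 were called, beside 1.12% of all features tested. The list was chosen with earlier results of these data known. LPP, a LIM protein related to zyxin, rose from 139.8, 136.7 and 135.9 CPM to 161.8, 160.6 and 159.2 CPM (log2 fold change 0.22, standard error 0.0364, adjusted p = 0.00736). ITGA2, the collagen-binding alpha 2 chain, fell from 148.2, 148.2 and 147.4 CPM to 118.5, 124.1 and 110.6 CPM (log2 fold change −0.33, standard error 0.0451, adjusted p = 0.00269). Both were without overlap. ITGB1, the partner of ITGA5, ITGA3, ITGA6, ITGA7 and ITGA4, was not called, at 0.094 (adjusted p = 0.181). LPP lost its call without Sh-ZNF469 replicate 1 (adjusted p = 0.0779), while ITGA2 kept it in all 18 alternative settings when read at the adjusted p alone.

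Matrix proteins and other ligands that these integrins grip were read from a list of 31 genes, of which 28 could be tested. Their median log2 fold change was 0.046, with 16 estimates above 0 and 12 below. Of the 28, 4 were called higher and 0 lower, against 0.4% of all features called higher and 0.715% called lower. The ligand list was likewise chosen with earlier results of these data known. TGFBI, an adhesive protein induced by TGF-β, rose from 1993, 1961 and 2015 CPM to 2250, 2228 and 2290 CPM (log2 fold change 0.18, adjusted p = 0.000837). POSTN, periostin, a ligand of alpha V integrins, rose from 10.4, 10.3 and 9.66 CPM to 15.6, 16.4 and 14.0 CPM (log2 fold change 0.60, adjusted p = 0.00595). In both genes each knockdown library lay above each control library. THBS1, thrombospondin, rose from 2087, 2015 and 2146 CPM to 2342, 2325 and 2296 CPM (log2 fold change 0.16, adjusted p = 0.00629). TNC, tenascin C, rose from 768.9, 737.6 and 773.7 CPM to 845.4, 818.2 and 858.9 CPM (log2 fold change 0.15, adjusted p = 0.0376). THBS1 lost its call without Control replicate 1 (adjusted p = 0.0602) or Sh-ZNF469 replicate 1 (0.0595), and TNC kept it among the single-library omissions only without Sh-ZNF469 replicate 2, with adjusted p up to 0.172. TNC also lost it with the trend on transcript length removed (log2 fold change 0.11, adjusted p = 0.158). FN1, fibronectin, the ligand of ITGA5, was not called, at 0.060 (adjusted p = 0.0775).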

How the data were processed

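Poly(A) RNA of 3 Control and 3 Sh-ZNF469 libraries was sequenced in read pairs of 150 bp. HISAT2 (alignment to GRCh38) and StringTie were used by the authors; versions, annotation, the counting step and its use of strand are not given in the sources used here. The authors deposited a whole-number count, without normalization, and an FPKM, both per gene and library. Dropping 17 lines without gene or values left 23754 features, of which 3780 were loci without an Ensembl identifier. GENCODE 44 gave coordinates, transcript length and GC content.

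Counts were tested with edgeR 4.0.16 in R 4.3.3, using filterByExpr (minimum count 10), TMM scaling and the quasi-likelihood test with group as the sole term. P-values were adjusted over 13991 features by the Benjamini-Hochberg method. The biological coefficient of variation common to all features was 0.0731. FPKM entered only the ordering of chains and the shares of related genes, which were compared by exact permutation tests (scipy 1.17.1). Alternatives were other filters and scalings, DESeq2 1.42.0, limma-voom 3.58.1, lowess trends (span 0.3) on transcript length, the replicate number as a block and leaving out each library. The GC trends were chosen after seeing the data. The scripts were tested on simulated counts.

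The members and all gene lists were chosen with earlier results of these data known. Values in every library are given for members at an adjusted or unadjusted p under 0.05 and for the 2 members of each role with the highest mean FPKM. ITGA9, which was not tested, is the exception and is given by its range of counts and mean FPKM. No pair of libraries was a duplicate, since chi-square per degree of freedom was 4.54 or more for every pair. At this depth counting error is small except for ITGA8, ITGA9, ITGB4 and ITGB8.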

Additional observations from a re-analysis of the deposited data

How the results depend on the processing

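Of the values recomputed for single genes, 539 kept their direction and side of the threshold, 28 passed it only under the alternative, 16 lost it and 17 changed sign. Of the summary values, 178 stayed near the main value and 63 moved. In the main setting 56 features were called higher and 100 lower, members 0 and 0, other adhesion genes 1 and 1, and ligands 4 and 0, and the median of the members was −0.033. The cause of each difference below was not tested unless the setting itself gives it.

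Without a filter, 127 features were called higher and 163 lower, 2 members higher and 2 other adhesion genes lower. Library size scaling gave 88 features higher against 77 lower, so that more than 50% of calls were higher, and 2 members higher. DESeq2 gave 260 and 267 features, 2 members higher and 1 lower, 6 other adhesion genes higher and 2 lower, and 2 ligands lower. With the length trend removed, ITGB5 was −0.000989 and PXN −0.00824, and TNC lost its call. With the GC trend removed, 127 features were higher and 163 lower (2 members higher, 2 other adhesion genes lower, 7 ligands higher), the median of the members was 0.019, and ITGA3 was 0.0434, TLN1 0.0156, TNS3 0.00793 and FLNA 0.0232. With an added absolute log2 fold change over 1, 2 features were higher and 4 lower, and 0 other adhesion genes and 0 ligands were called. At an unadjusted p under 0.05, 1023 features were higher and 1076 lower, members 4 and 5, other adhesion genes 14 and 4, and ligands 9 and 3. With CPM per length, the shares of ACTN1 and PXN differed by 0.526 and 1.86 percentage points.

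Same-numbered libraries had deviations from their group means correlated at −0.024, −0.035 and 0.036, and 2 of 6 libraries correlated best with their own number. With 3 libraries per group these values cannot settle whether replicate numbers pair the libraries. With the replicate block, 135 features were higher and 157 lower, 2 members higher and 1 lower (TNS1, ITGAV and ACTN4), 2 other adhesion genes in each direction and 1 ligand lower. With the replicate block and the length trend removed, 157 features were higher and 185 lower, 1 member higher and 3 lower (ITGAV, ACTN1, ACTN4 and FLNA), 2 other adhesion genes in each direction and 2 ligands lower, and ITGB5 was −0.00106 and PXN −0.00843. With the replicate block and the GC trend removed, 2 members were higher, their median was 0.0195, and ITGA3 was 0.0436, TLN1 0.0158, TNS3 0.00794 and FLNA 0.0233.

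Leaving out each library in turn gave 20 to 69 features higher and 54 to 92 lower, fewest of both without Sh-ZNF469 replicate 1. It gave 0 to 1 members higher, the 1 being ITGAV without Sh-ZNF469 replicate 3, and 0 lower. Other adhesion genes numbered 0 to 1 higher and 1 to 2 lower, and ligands 2 to 5 higher. The median of the members ran from −0.0438 to 0.000742, the latter without Control replicate 3. ITGB5 changed sign to −0.00834 and −0.00357, ITGA3 (range −0.0511 to 0.016) to 0.016 and 0.00669, and TLN1 (range −0.0577 to 0.000742) to 0.000742. Depth limits ITGA8 and ITGB8 and kept ITGA9 and ITGB4 out of the test.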
